A study of Mus musculus with 7 samples.

Results

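A single array of the mouse kidney cell line mIMCD-3 was set against 2 arrays of metanephric mesenchyme, the embryonic tissue that induces the ureteric bud to branch and gives rise to the nephrons. The comparison uses 3 of the 7 arrays of the study, grouped by their labels, and covers 18193 genes. The comparison and the 36 gene lists used below were chosen with earlier results of these data known. Shares of the lists therefore describe the lists and test nothing. The labels describe mIMCD-3 as a mouse inner medullary collecting duct line. The cells hybridised were 1 subclone, grown to confluency in DMEM, so they represent a single clone of cultured cells without replicate. The mesenchyme was microdissected from mouse kidneys at stage E12.5 and is labelled as 2 biological replicates. No genotype, strain, sex or treatment is given for either. The remaining 4 arrays hold ureteric bud tissue of the same stage, 2 of stalks and 2 of tips, and their levels are given here beside those of mIMCD-3. All RNA was total RNA from RNeasy columns with DNase treatment, of which 1 ug was labelled as biotinylated cRNA on Affymetrix mouse genome arrays.

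The metanephric mesenchyme consists of loosely packed cells held in an interstitial matrix, among them the progenitors of the nephron and of the renal stroma, together with blood vessels and circulating blood cells. It secretes GDNF, which signals through the receptor RET in the ureteric bud. The bud is a polarised epithelial tube that grows from the nephric duct, and its branches become the collecting ducts, whose cells reabsorb water and salt under the control of vasopressin and aldosterone. A collecting duct line and the mesenchyme thus stand on opposite sides of the divide between epithelium and mesenchyme, and they differ as well in age, in culture and in the mix of cells.

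Values are log2 of the RMA intensity, on which 1 unit is a 2-fold difference, and differences are mIMCD-3 minus the mean of both mesenchyme arrays. A gene is called higher or lower when the difference was at least 1 log2 unit and mIMCD-3 lay outside both mesenchyme arrays, the size rule used throughout. With 1 array of mIMCD-3 no test can be made, and no p-value is given anywhere. The mIMCD-3 array was added to tissue arrays published earlier, so the cell line and the time of hybridisation cannot be told apart. The median probe set intensity was 45.9 and 48.8 in the mesenchyme arrays and 42.1 in mIMCD-3, and so few arrays leave each value imprecise. Levels under the lower quartile of an array, which lay between 3.99 and 4.17 in these 3 arrays, are called dim. The array values carry no call of presence or absence, and a difference that ends in a dim level is an uncertain measure of the true fold. In tissue RNA, fewer cells of a type and less RNA per cell cannot be told apart.

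By size, 2045 genes (11.2%) were higher in mIMCD-3 than in mesenchyme and 1780 (9.78%) were lower. These are the shares to set beside the count of every gene list below. At a difference of at least 2 log2 units, 608 genes (3.34%) remained on the higher side and 792 (4.35%) on the lower side. At least 4 log2 units, or 16-fold, separated 115 genes upwards and 266 downwards, and the median of all differences was -0.07. The error could be measured for the mesenchyme side alone, as the difference between its replicates, which reached 1 log2 unit in 7 genes (0.0385%) and was 1.47 at most. Across genes the replicate difference had a standard deviation of 0.255, against 1.21 for the difference of mIMCD-3 from mesenchyme. The spread of mIMCD-3 between cultures, clones and hybridisations is not measured here and is not part of the smaller figure. Across probe sets, which are not independent replicates, the mesenchyme arrays correlated with each other at 0.994 and their mean with mIMCD-3 at 0.899. Without regard to size, mIMCD-3 lay above both mesenchyme arrays in 7137 genes (39.2%) and below both in 8693 (47.8%). On the edge of the size rule, Dtwd1 counted as higher at 1.00004, while Flvcr1 at 0.999745 and Tmem242 at -0.999669 did not count.

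**Figure D1:**
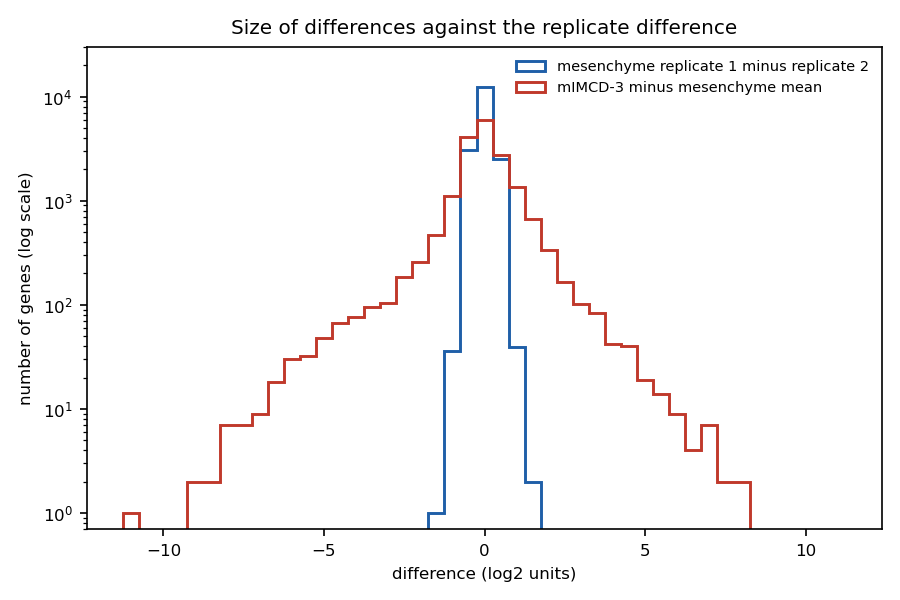
Number of genes (vertical axis, log scale) by size of difference in log2 units (horizontal axis, in steps of 0.5), for mesenchyme replicate 1 minus replicate 2 (blue line) and for mIMCD-3 minus the mesenchyme mean (red line). The replicate difference stayed within 1.47 log2 units, while the mIMCD-3 difference ran from -10.84 to 8.01.

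The genes called against mesenchyme were also placed against the 4 ureteric bud arrays. Of the 2045 higher genes, 1913 were above all 4 bud arrays, 92 lay within the bud range and 40 lay below it. Among the 1780 lower genes, 1657 were also below all 4 bud arrays. Of all 18193 genes, 5973 were above the bud arrays, 5455 within their range and 6765 below. A gene called for a high or low mIMCD-3 level is by that choice more likely to lie outside the bud range on the same side. Over all 6 tissue arrays together, mIMCD-3 was at least 1 log2 unit above each in 1148 genes (6.31%) and at least that far below each in 934 (5.13%). For scale, stalk against mesenchyme, by means at least 1 log2 unit apart with arrays that do not overlap, gave 486 genes higher (2.67%) and 104 lower (0.572%). Tip against mesenchyme gave 693 higher (3.81%) and 811 lower (4.46%) by that rule. All 3 comparisons use the same mesenchyme arrays as reference, so their values are set side by side and no overlap between them is read.

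The labels were checked against markers of each cell type. All 6 markers of epithelium (Cdh1, Epcam, Krt8, Krt18, Cldn4 and Esrp1) were higher in mIMCD-3, by 3.79 to 7.04 log2 units. All 8 markers of metanephric mesenchyme (Six2, Eya1, Osr1, Meox1, Wt1, Itga8, Gdnf and Foxd1) were lower, with differences from -6.11 to -1.28. Of 9 measured collecting duct markers, only Pax8 was higher, Hsd11b2 was lower, and the water channels Aqp2 and Aqp3, the vasopressin receptor Avpr2, the sodium channel subunits Scnn1a, Scnn1b and Scnn1g and the transcription factor Gata3 were neither. By these arrays the line was epithelial and was not mesenchyme. Of its collecting duct markers, however, only Pax8, a factor of the whole nephric lineage, met the size rule upwards. Avpr2 came nearest among the rest, at 5.31 and 5.78 in mesenchyme and 6.38 in mIMCD-3.

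The 20 genes furthest above mesenchyme differed by 5.95 to 8.01. S100a6, which encodes a calcium-binding protein, led with a difference of 8.01, followed by the small heat shock protein gene Cryab (7.92), the annexin gene Anxa1 (7.69) and the galectin gene Lgals3 (7.64). Epithelial members of the 20 were Cdh1 for E-cadherin (7.04), the keratin genes Krt7, Krt19 and Krt8, the splicing regulator gene Esrp1, the apical trafficking gene Mal2, the keratinocyte kinase gene Ripk4 (7.13) and Scel, which encodes sciellin (7.03). The others were Foxa1, Ankrd1, Ifit3, Ugt8a, Tmem30b, Shtn1, Plscr2 and the prostaglandin synthase gene Ptgs2 (5.96). In 17 of the 20, mIMCD-3 exceeded all 4 bud arrays as well, and Cdh1, Mal2 and Esrp1 lay within the bud range. In 6 of them the mesenchyme level was dim. Cryab has 3 probe sets, 1 of which points the other way, as given with its group further on.

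The 20 genes furthest below mesenchyme were mainly genes of blood, stroma, matrix and imprinted loci. The embryonic globin gene Hbb-y had the widest difference of all (-10.84), and Hba-x, another embryonic globin, was at -7.88. Mesenchymal and stromal genes among the 20 were Cdh11 for a mesenchymal cadherin (-9.08), Tcf21 (-8.60), Vim (-7.87), Foxc2 (-7.22), Vcan (-7.49), Col3a1 (-7.48) and Tgfbi (-8.06). Imprinted genes, expressed from 1 parental copy, were Grb10 (-8.45), Ndn (-8.06), Peg3 (-7.66), Nnat (-7.41) and Slc38a4 (-7.27). Signalling genes were Ptn for the growth factor pleiotrophin (-8.12), Aplnr for the apelin receptor (-8.08), the chemokine gene Cxcl12 (-7.71), S1pr3 (-7.34) and Shisa3 (-7.98), and Fscn1 encodes the actin bundler fascin (-8.83). All 20 were below the 4 bud arrays too, and in 12 the mIMCD-3 level was dim.

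**Figure D2:**
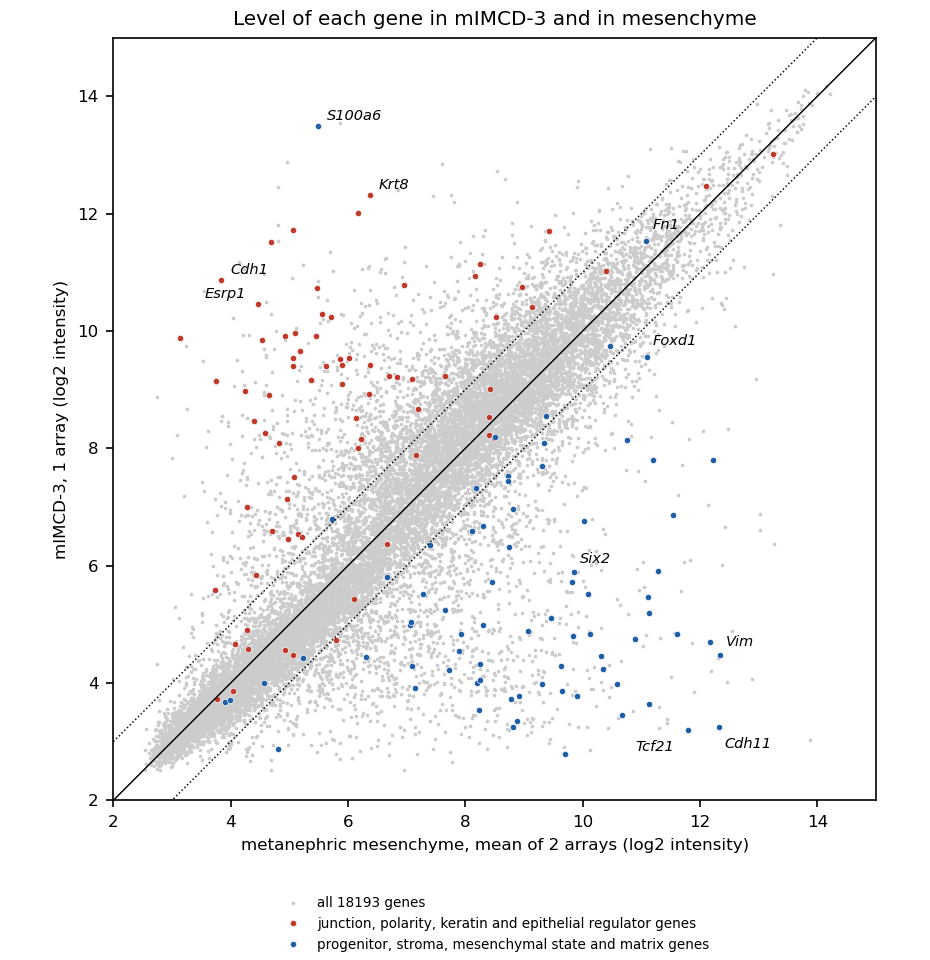
Level of each gene in mIMCD-3 (vertical axis, 1 array, log2 intensity) against mesenchyme (horizontal axis, mean of 2 arrays, log2 intensity), with all 18193 genes in grey and the genes of selected lists in colour as given in the legend. Dotted lines mark 1 log2 unit either side of the diagonal, and most coloured junction, keratin and epithelial regulator genes lie on or above it, most progenitor, stroma, mesenchymal and matrix genes below it.

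The junctions that tie epithelial cells together were among the clearest differences. Of 21 genes of adherens junctions and desmosomes, 14 (66.7%) were higher in mIMCD-3 and none was lower, against 11.2% and 9.78% over all genes, and the median difference was 1.94. Cdh1 was 4.0 and 3.68 in the mesenchyme arrays and 10.88 in mIMCD-3, a difference of 7.04. Its level was dim in both mesenchyme arrays, while mIMCD-3 stood within the 10.45 to 11.09 of the bud arrays. Epcam, for an epithelial adhesion molecule, was 7.15 and 6.75 in mesenchyme and 10.79 in mIMCD-3, which is below every bud array (11.41 to 12.52). The other Epcam probe set differed by only 0.007. Cdh16, the kidney cadherin, was 3.53 higher than in mesenchyme and also remained under the bud.

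Desmosomes, which anchor keratin filaments, contributed the larger part of these genes. The plaque protein gene Dsp was 4.94 and 4.11 in mesenchyme and 9.84 in mIMCD-3, a difference of 5.32, and the desmosomal cadherin genes Dsg2 and Dsc2 differed by 4.48 and 3.68. The plakophilin genes Pkp2 (3.65) and Pkp3 (2.37), the plakoglobin gene Jup (1.48) and the plakin genes Ppl (3.05) and Evpl (1.84) followed. Perp, which encodes a desmosomal membrane protein, rested on 4.13 and 3.38 in mesenchyme against 9.15 in mIMCD-3, and its bud levels reached only 5.06. Genes of the catenin core that mesenchymal cells use too did not meet the size rule: Ctnnb1 differed by -0.24, Ctnna1 by 0.37 and Ctnnd1 by -0.17. In 9 of the 14 higher genes mIMCD-3 exceeded all bud arrays. Afdn, for the junction adaptor afadin, was 1.73 higher by its brightest probe set, but its other probe set was -0.27.

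Tight junctions seal the space between epithelial cells, and 19 of 26 measured genes of this group (73.1%) were higher, with a median difference of 2.19. The claudin genes took different positions. Cldn7 was 5.28 and 5.65 in mesenchyme and 10.73 in mIMCD-3, within the bud range. Cldn4 was 5.60 and 5.65 against 9.41, under the 10.84 to 11.50 of the bud. Cldn3 (2.09), Cldn8 (1.38), Cldn12 (1.79) and Cldn1 (1.48, with 1 of 4 probe sets the other way and a mean of 0.38) were higher, whereas Cldn2 (-0.59) and Cldn10 (-0.17) were neither. Cldn8, a claudin of the collecting duct, was 5.25 and 5.06 in mesenchyme, 6.54 in mIMCD-3 and 11.56 to 11.67 in the bud arrays, so the line lay far nearer to mesenchyme than to bud. Cldn6, a claudin of embryonic epithelia, was the only gene of the group called lower, at -1.06 against bud levels of 10.54 to 11.63. It was -0.84 without mesenchyme replicate 1 and -0.89 with arrays centred on their medians, both short of the size rule. It no longer met the size rule with arrays centred on their medians, with quantiles equalised again, or without mesenchyme replicate 1.

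Other parts of the tight junction and of apical polarity were higher as well. Ocln, for occludin, was 4.56 and 4.24 in mesenchyme and 8.47 in mIMCD-3, and the tricellulin gene Marveld2 differed by 3.26 and Marveld3 by 4.25 (2 of 3 probe sets). The scaffold genes Tjp3 (2.44) and Cgn (3.80) were higher, while Tjp1, which is not restricted to epithelium, differed by 0.62. Polarity genes followed in the same direction, with Pard6b at 4.46, Llgl2 at 3.20, Patj at 2.38, Prkci at 2.28 and Crb3 at 1.58, but Pard3 at 0.13. Prkci was 0.42 where probe sets ending in _at were preferred. Mal2, which encodes a protein of transport to the apical membrane, was 2.95 and 3.32 in mesenchyme and 9.89 in mIMCD-3. Both mesenchyme levels of Mal2 were dim, and the mIMCD-3 level lay in the bud range. Of the 19 higher genes, 11 exceeded the bud arrays, 4 lay within them and 4 below.

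Simple epithelial keratins form the intermediate filaments of duct cells, and 4 of 6 were higher, with a median of 5.90. Krt8 was 6.38 and 6.35 in mesenchyme and 12.31 in mIMCD-3, and its partner Krt18 was 6.33 and 6.0 and 12.01. Krt7 was 4.92 and 4.45 and 11.52. All 3 stood above the bud arrays, where Krt8 reached 11.90, Krt18 11.62 and Krt7 9.13. Krt19 departed most from the bud, with 5.26 and 4.86 in mesenchyme, 11.72 in mIMCD-3 and 6.57 to 7.06 in the bud. Krt20 (0.64) and Krt23 (-0.35) were neither higher nor lower.

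The list of epithelial regulators holds transcription and splicing factors, but also the protease genes St14 and Prss8, the inhibitor genes Spint1 and Spint2, and Bspry. Its genes were higher almost throughout: 18 of 20 (90.0%), with none lower and a median of 2.81. Without the dimmest 40% of genes, 11 were counted as higher. Grhl2, a grainyhead factor that controls junction genes, was 5.59 and 5.54 in mesenchyme and 10.30 in mIMCD-3, above the 8.66 to 9.92 of the bud arrays. Of the 4 Grhl2 probe sets 1 met the size rule, and the smallest difference was 0.29. The Grhl2 relatives Grhl1 (1.89) and Grhl3 (1.85) were higher too, although no bud array showed them above mesenchyme by as much. Esrp1, which directs epithelial splicing, was 4.31 and 4.61 against 10.47, and Esrp2 was 4.97 and 5.15 against 9.41. The ETS factor genes Ehf (4.73, 3 of 4 probe sets) and Elf3 (2.53), the Krüppel-like factor gene Klf5 (4.52), the RNA-binding protein gene Rbm47 (5.0) and Ovol1 (2.18) all exceeded the bud. The 2 genes not called were Trp63 (0.28), low in all arrays, and Elf5 (0.60), at 4.67 in mIMCD-3 and 6.72 to 7.23 in the bud.

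Some duct-specific genes of this list were higher than in mesenchyme yet far under the bud. Tfcp2l1, a factor of collecting duct differentiation, was 4.78 and 3.78 in mesenchyme, 7.0 in mIMCD-3 and 9.71 to 9.80 in the bud, and its mesenchyme replicates were 1.00 apart, the only gene of any list with so wide a gap. Prss8, for the channel-activating protease prostasin, was 6.49 in mIMCD-3 and at least 8.35 in the bud. The related membrane protease gene St14 (4.46) and the inhibitor gene Spint1 (4.87) exceeded the bud, so proteases and inhibitors of 1 pathway took different positions. Prss8 did not meet the size rule without mesenchyme replicate 1 (0.95). Tfap2a (3.53) and Spint2 (2.89) lay within the bud range.

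The promoters of these epithelial genes were read for the E-box letters CACCTG, the core bound by Snail and Zeb repressors that keep epithelial genes off in mesenchyme. The sequences, from RefSeq with build GRCm38.p6, run from 250 bases before to 50 bases after the annotated start, and the letters were searched on both strands (CAGGTG is the same site on the other strand). They occurred in 20.2% of all 32851 promoters of the table and in 22.9% of those of the array's genes. Among promoters of genes at least 3 log2 units higher in mIMCD-3 they occurred in 84 of 205 (41.0%), and among those at least 3 log2 units lower in 59 of 324 (18.2%). They were in 12 of 20 tight junction promoters, 4 of 5 keratin promoters, 6 of 11 promoters of epithelial regulators and 3 of 8 of adherens junction and desmosome genes. Lists that were not raised as groups held them too, with 8 of 18 promoters of ureteric bud ligands and receptors and 8 of 18 of collecting duct transport genes, and chemokine and NF-kB genes had 6 of 15. They were in none of 19 Hox and none of 13 renal stroma promoters. The grainyhead letters AACCNGTT occurred in 2.09% of all promoters, in 2 of the 205 and in 9 of the 324. A match describes letters in this window and no binding. The 4 promoters shown belong to marker genes higher in mIMCD-3 and were chosen after their values were seen, with the E-box letters in capitals. They are Cldn4 (chr5:134946885-134947184, minus strand), Krt8 (chr15:102004293-102004592, minus strand), Krt18 (chr15:102027966-102028265, plus strand) and Epcam (chr17:87635729-87636028, plus strand).
Cldn4: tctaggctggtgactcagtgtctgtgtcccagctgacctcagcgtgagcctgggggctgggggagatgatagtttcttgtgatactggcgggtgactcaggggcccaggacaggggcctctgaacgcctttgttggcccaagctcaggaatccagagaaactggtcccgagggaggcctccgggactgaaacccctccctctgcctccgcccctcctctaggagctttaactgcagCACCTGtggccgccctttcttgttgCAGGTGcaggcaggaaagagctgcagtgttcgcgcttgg
Krt8: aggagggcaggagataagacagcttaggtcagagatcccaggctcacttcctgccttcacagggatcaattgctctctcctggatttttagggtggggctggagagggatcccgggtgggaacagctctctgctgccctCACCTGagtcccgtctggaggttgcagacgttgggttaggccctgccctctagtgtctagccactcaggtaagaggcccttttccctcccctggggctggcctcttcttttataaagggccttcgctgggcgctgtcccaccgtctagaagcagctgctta
Krt18: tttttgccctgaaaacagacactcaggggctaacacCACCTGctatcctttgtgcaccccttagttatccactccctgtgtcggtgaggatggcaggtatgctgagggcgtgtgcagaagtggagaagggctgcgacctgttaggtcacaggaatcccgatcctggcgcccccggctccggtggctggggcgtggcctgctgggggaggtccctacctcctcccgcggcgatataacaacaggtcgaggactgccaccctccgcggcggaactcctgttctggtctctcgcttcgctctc
Epcam: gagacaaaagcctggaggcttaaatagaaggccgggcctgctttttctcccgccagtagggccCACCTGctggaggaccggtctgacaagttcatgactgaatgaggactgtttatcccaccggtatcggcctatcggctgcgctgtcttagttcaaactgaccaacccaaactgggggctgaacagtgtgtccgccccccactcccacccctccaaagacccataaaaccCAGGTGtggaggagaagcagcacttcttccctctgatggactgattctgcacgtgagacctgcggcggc

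Cldn4 and Epcam each hold the letters at 2 places, with 1 of the Cldn4 places past the annotated start, and Krt8 and Krt18 hold them once. The levels of these genes differed by 3.79 for Cldn4, 5.95 for Krt8, 5.85 for Krt18 and, by its brightest probe set, 3.84 for Epcam. The genes of the Snail and Zeb repressors were lower in mIMCD-3 and are given with the mesenchymal genes. Their part in the levels of these epithelial genes was not tested.

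Transcription factors of the nephric duct separated into a minority that mIMCD-3 carried and a majority that it did not. Of 18 measured, 4 (22.2%) were higher and 5 (27.8%) lower, against 11.2% and 9.78% of all genes. The median was -0.57, while the same genes had medians of 1.16 in stalk and 1.59 in tip against mesenchyme. Pax8, a factor of the whole nephric lineage, was 7.40 and 7.10 in mesenchyme and 9.70 in mIMCD-3, above the bud arrays (7.80 to 8.14). Sim1, a factor of the nephric duct, was 4.39 and 4.82 against 9.09, and Emx2, required for ureteric bud growth, was 6.06 and 5.68 against 9.44. Sim1 lay within the bud range and Emx2 below it. Foxa1, a pioneer factor of ureter and bladder epithelium, was 4.90 and 4.72 in mesenchyme, 7.09 and 6.86 in stalk, 4.57 and 5.04 in tip and 11.80 in mIMCD-3. Its relative Foxa2 differed by -0.18.

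Several factors that mark the bud stood no higher in mIMCD-3 than in mesenchyme. Gata3, required for nephric duct guidance, was 4.55 and 4.59 in mesenchyme and 4.48 in mIMCD-3, against 8.20 to 9.32 in the bud. Lhx1 was 5.16 and 4.78 and 4.36 against 7.57 to 9.51, and Tfap2b and Sall4 showed the same order of levels. Pou3f3 was lower than in mesenchyme (-1.21) although the bud reached 10.97. Etv5 (-4.09) and Etv4 (-1.98), which act downstream of RET, and Sall1 (-3.10), which mesenchyme and bud both use, were lower. Sox9 was called lower at -1.30, but 2 of its 3 probe sets pointed the other way. With the mean of all probe sets, Sox9 and Pou3f3 no longer met the size rule and 3 genes of the list remained lower.

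The signalling genes that define the ureteric bud were mostly not raised in the line. Of 28 ligands, receptors and bud markers, 5 (17.9%) were higher and 9 (32.1%) lower, against 11.2% and 9.78% of all genes. Their median was -0.36, with 0.67 in stalk and 1.74 in tip. Ret, the GDNF receptor gene, was 4.56 and 5.0 in mesenchyme, 4.12 in mIMCD-3, 8.89 and 8.52 in stalk and 11.07 and 10.70 in tip. Its co-receptor gene Gfra1 was lower than in mesenchyme (-3.58), and Wnt11, a tip ligand gene induced by RET, differed by -0.78. Calb1, for the bud marker calbindin, was 6.26 and 5.56 in mesenchyme, 3.38 in mIMCD-3 and 12.53 to 13.68 in the bud, and its difference was -0.945 with the mean of its probe sets. None of these bud genes was at its bud level in mIMCD-3. Wnt9b (-0.32), Shh (-0.70), Wnt6 (0.11) and Ros1 (-0.40) did not meet the size rule either, and Spry1, a RET inhibitor gene, was 9.69 and 9.57 in mesenchyme and 9.63 in mIMCD-3.

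The 5 higher genes of this list were ligands, receptors and secreted proteins. Wnt7b, the ligand gene that drives medullary duct elongation, was 6.99 and 6.87 in mesenchyme, 7.82 to 8.10 in the bud and 10.93 in mIMCD-3. Met, for the hepatocyte growth factor receptor, was 7.65 and 7.29 in mesenchyme, at most 9.48 in the bud and 10.84 in mIMCD-3. Npnt, which encodes the matrix ligand nephronectin, was 4.05 higher and within the bud range. Lcn2 (3.10), an injury-induced lipocalin gene, and the cytokine gene Clcf1 (1.67) stood above all tissue arrays. Without the dimmest 40% of genes, 3 of these 5 were counted. Ligand genes of mesenchyme itself were lower, among them Bmp4 (-2.37), Wnt4 (-2.27), Bmp7 (-1.83) and the retinoic acid synthesis gene Aldh1a2 (-2.96). Egfr differed by -0.28, and only 2 of its 7 probe sets shared that sign.

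**Figure D3:**
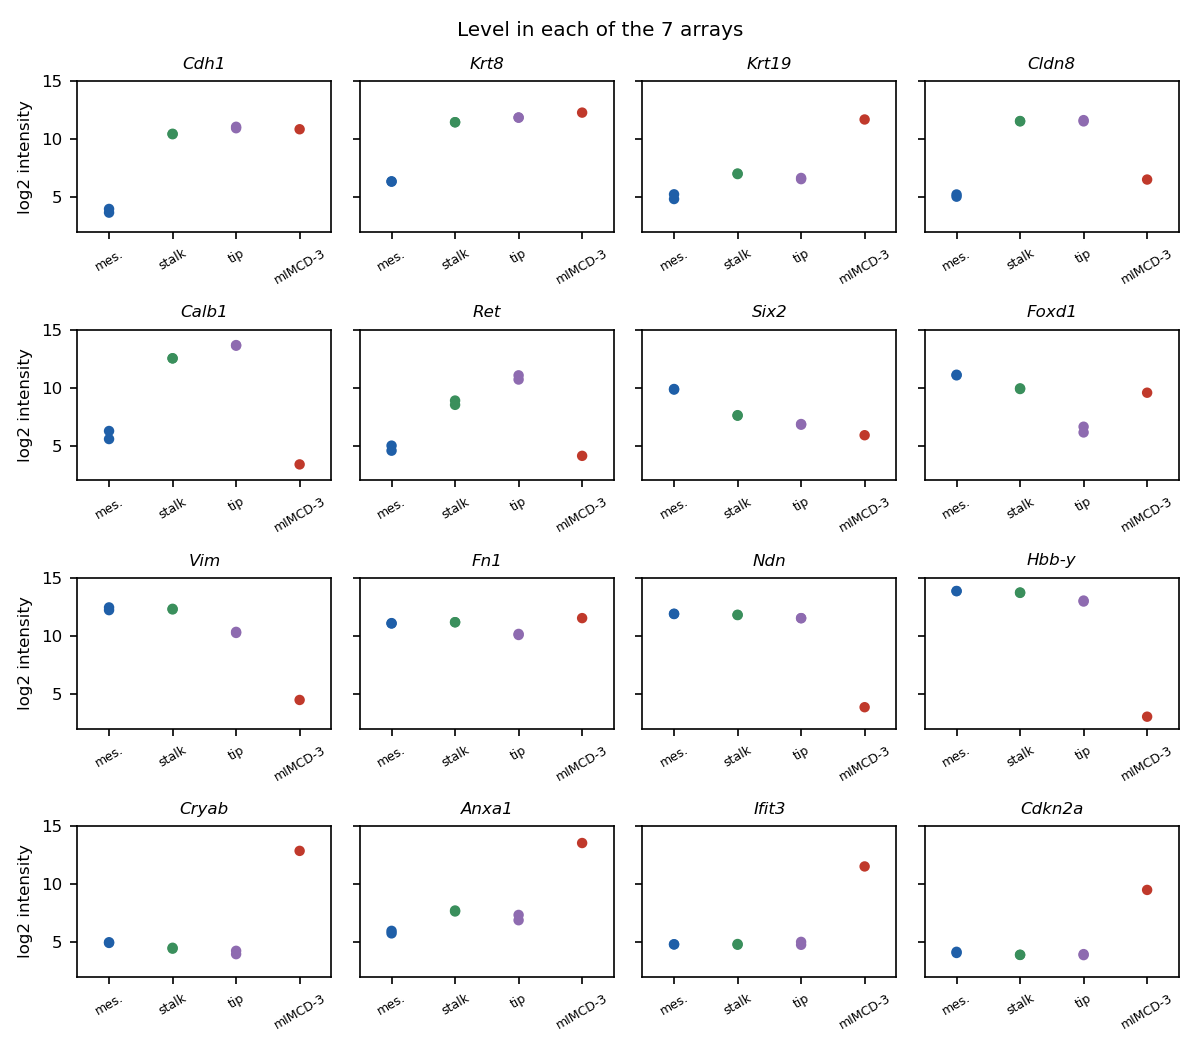
Level of 16 genes in each array (vertical axis, log2 intensity), with points for the 2 mesenchyme, 2 stalk, 2 tip and 1 mIMCD-3 arrays from left to right. Cdh1 and Krt8 were high in bud and mIMCD-3, Ret, Calb1 and Cldn8 in the bud alone, Six2, Foxd1, Vim, Ndn and Hbb-y lay lower in mIMCD-3 than in mesenchyme, and Krt19, Cryab, Anxa1, Ifit3 and Cdkn2a were highest in mIMCD-3.

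Genes of water, salt and acid transport in the collecting duct did not distinguish the line from mesenchyme as a group. Of 28 measured, 5 (17.9%) were higher and 3 (10.7%) lower, shares close to those over all genes, and the median was -0.16. With quantiles equalised again, or without mesenchyme replicate 2, 5 were counted as lower. Aqp2, the vasopressin-regulated water channel gene, was 5.20 and 5.16 in mesenchyme and 5.15 in mIMCD-3. The sodium channel genes Scnn1b and Scnn1g stood at 5.03 and 5.12 in mIMCD-3, against mesenchyme levels of 5.26 and 5.04 and 4.37 and 4.93, while the bud arrays reached 7.18 and 7.88. Avpr2 differed by 0.84, the urea transporter gene Slc14a2 by -0.57, and the intercalated cell genes Atp6v1b1 and Slc26a4 by -0.16 and -0.22.

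The transport genes that were higher were few. Atp1b1, for the beta subunit of the sodium pump, was 7.68 and 7.82 in mesenchyme, at most 9.88 in the bud and 12.32 in mIMCD-3, with all 5 probe sets in the same direction. Its difference was 4.57, and 0.27 where probe sets ending in _at were preferred. Nedd4l, for a ubiquitin ligase of the sodium channel, was 1.98 higher by its brightest probe set (4 of 6 probe sets shared the sign, with a mean of 0.89), and the mineralocorticoid receptor gene Nr3c2 was 1.56 higher. The prostaglandin receptor gene Ptger4 (1.30) and the endothelin gene Edn1 (1.33) completed the 5. Hsd11b2, the enzyme that shields that receptor from glucocorticoids, went the other way, with 9.76 and 9.69 in mesenchyme, 8.70 to 10.23 in the bud and 5.0 in mIMCD-3. Slc26a7, an anion exchanger gene, was 7.91 and 7.56 in mesenchyme and 2.82 in mIMCD-3, against 8.44 and 8.25 in stalk and 4.51 and 4.15 in tip.

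Cells of the inner medulla live in high salt and urea. The cells here were grown in DMEM, and a part of salt or urea in their values was not tested. Genes listed for protection against osmotic and heat stress were higher as a group. Of 11 measured, 9 (81.8%) were higher and none lower, and all 9 exceeded every bud array. The median was 2.10, against 0.06 in stalk and 0.07 in tip. Nfat5, the osmotic stress factor gene, was 7.63 and 7.42 in mesenchyme and 9.0 in mIMCD-3. The osmolyte transporter genes Slc5a3 for myo-inositol and Slc6a6 for taurine differed by 2.05 and 2.10 (3 of 4 probe sets for Slc6a6), but the betaine transporter gene Slc6a12 by -0.48. Means over all probe sets were under the size rule for Nfat5 (0.64) and Slc6a6 (0.63).

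Heat shock genes had the widest differences of this group. Hspa4l, an osmotic stress chaperone gene, was 5.95 and 6.10 in mesenchyme and 9.72 in mIMCD-3, and Hspa1b was 7.42 and 7.22 and 11.12. The small heat shock gene Hspb1 was 7.60 and 8.03 against 12.20. All 3 lay above the bud arrays. Cryab was 4.93 and 4.99 in mesenchyme, 3.96 to 4.51 in the bud and 12.87 in mIMCD-3 by its brightest probe set. A choice of the probe set ending in _at turned the Cryab difference to -0.11, so its size rests on the choice of probe set. S100a4, for a calcium-binding protein, was 3.31 higher.

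Genes of the primary cilium, an organelle of duct and mesenchyme cells alike, had a median difference of 0.13. Of 31 measured genes, 7 (22.6%) were higher and 1 (3.23%) was lower, against 11.2% and 9.78% of all genes. With the mean of all probe sets 3 were higher, and without mesenchyme replicate 2 the counts were 4 higher and 2 lower. Intraflagellar transport genes stayed within the size rule, such as Ift88 (-0.45) and Ift172 (0.77), with Ift57 at 1.20 (1 of 2 probe sets) as the exception, and Ift57 was 0.29 with the mean of both. The polycystin gene Pkd1 differed by 0.10. Genes linked to cystic kidney disease that act in duct cells stood out. Pkhd1, for fibrocystin, was 2.88 and 3.11 in mesenchyme, 6.66 to 7.50 in the bud and 7.83 in mIMCD-3. Bicc1, for an RNA-binding protein, was 8.63 and 8.45 and 12.74, and the transcription factor gene Glis3 was 4.46 and 4.16 and 9.94. Both were above the bud. Mks1, of the ciliary transition zone, was the gene called lower (-1.92).

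The nephron progenitors of the mesenchyme express a set of transcription factors and signals, and all 14 measured genes of this set were lower in mIMCD-3, with a median of -3.95. The same genes had medians of -1.66 in stalk and -2.99 in tip. Six2, the factor that maintains the progenitor pool, was 9.88 and 9.84 in mesenchyme and 5.90 in mIMCD-3, below the 6.80 to 7.63 of the bud arrays. Itga8, the integrin gene through which mesenchyme meets nephronectin, was 10.05 and 9.75 and 3.78. Meox2 was 9.02 and 8.62 and 3.25. The mIMCD-3 levels of Itga8 and Meox2 were dim. Eya1 (-3.40), Wt1 (-4.36), Meox1 (-4.59), Cited1 (-3.93), Crym (-5.33) and Capn6 (-5.37) followed the same direction.

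Some progenitor genes remained at or above bud levels in the line. Osr1, an early mesenchyme factor gene, was 8.97 and 8.49 in mesenchyme and 7.45 in mIMCD-3, above the bud arrays at 5.03 to 7.09. Gdnf, the ligand gene for RET, was 8.91 and 8.71 and 6.96, with stalk at 7.08 and 7.16 and tip at 6.10 and 5.87. Eya1 in mIMCD-3, at 7.80, lay within the bud range as well. The other 11 genes of the set were below all bud arrays.

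Genes of the first nephron epithelium, which forms from the mesenchyme after induction, were lower in 6 of 20 cases and higher in 1, against 9.78% and 11.2% of all genes, with a median of -0.67. Cdh6, for a cadherin of the renal vesicle, was 6.39 and 6.14 in mesenchyme and 8.21 in mIMCD-3 and was the gene called higher. With arrays centred on their medians, with quantiles equalised again, or without mesenchyme replicate 1, 2 genes were higher. Bmp2 (-2.98), Hey1 (-2.80), Dkk1 (-2.47) and Ccnd1 (-2.12) were lower, and Tmem100 (-1.69) and Podxl (-1.18) did so by less. With the mean of all probe sets the last 2 were -0.97 and -0.70, short of the size rule. The Notch pathway genes Jag1 (-0.99), Hes1 (0.01), Dll1 (-0.13) and Notch2 (0.24) did not meet the size rule.

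The renal stroma, the supporting cells around the nephron progenitors, was represented by 19 genes, of which 15 were lower in mIMCD-3 and none was higher. Their median was -4.18, with -2.38 in tip and -0.16 in stalk, a stalk median over members that went both ways. Crabp1 was -1.89 and Foxd1 -1.18 in stalk against mesenchyme, whereas Aldh1a7 was 1.97. Tcf21, a factor of the stroma and of nephron mesenchyme, was 11.83 and 11.77 in mesenchyme and 3.20 in mIMCD-3. The platelet-derived growth factor receptor genes Pdgfra and Pdgfrb were 10.88 and 10.91 and 9.84 and 9.56 in mesenchyme and 4.75 and 2.80 in mIMCD-3. Tbx18 (-5.78), Meis1 (-5.85), the R-spondin genes Rspo3 (-5.53) and Rspo1 (-5.04), and Crabp1 (-6.09) had differences of the same order. In 13 of the 15, mIMCD-3 was below all bud arrays, and in 5 its level was dim.

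Foxd1, the factor gene that marks stromal progenitors, was an exception by level. It was 11.12 and 11.06 in mesenchyme, 9.94 and 9.88 in stalk, 6.63 and 6.14 in tip and 9.57 in mIMCD-3. The line thus lay under mesenchyme, by a difference of -1.53, yet above both tip arrays. Slit2 (-0.82) and Ntn1 (-0.86), both guidance cue genes, did not meet the size rule.

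Genes of the mesenchymal state were mostly lower in mIMCD-3. Of 18, 13 (72.2%) were lower, 1 was higher and the median was -3.25. Vim, for the intermediate filament vimentin, was 12.46 and 12.23 in mesenchyme and 4.47 in mIMCD-3, a difference of -7.87 that all 3 of its probe sets shared in sign. The bud arrays held 10.26 to 12.34. Cdh11 was 12.32 and 12.33 and 3.24, and the matrix protease gene Mmp2 was 10.18 and 10.07 and 4.83. Cdh2, for N-cadherin, was 10.77 and 10.73 and 8.15, within the bud range.

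Genes of repressors known to hold epithelial genes off were lower, and their part in the epithelial differences was not tested. Snai2 was 11.64 and 11.59 in mesenchyme and 4.83 in mIMCD-3, and Snai1 was 7.18 and 6.98 and 5.03. Zeb2 was 8.37 and 8.08 and 3.55. Zeb1 differed by -3.27, Twist1 by -4.21 and Twist2 by -1.52. The homeobox genes Prrx1 (-5.13) and Prrx2 (-3.22) and the forkhead gene Foxc2 (-7.22) were lower too, while its neighbour in function Foxc1 was 10.56 and 10.36 and 9.75. Fn1, for fibronectin, was 11.07 and 11.10 in mesenchyme and 11.54 in mIMCD-3, and Axl was 8.57 and 8.45 and 8.19. The other probe set of Fn1 differed by -0.96. S100a6, listed here as a gene of mesenchymal cells, was the gene of the list called higher.

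Interstitial matrix genes were lower nearly as a whole. Of 23 measured, 20 (87.0%) were lower and 1 was higher, with a median of -3.30 against 0.39 in stalk and -1.50 in tip. The fibrillar collagen genes Col3a1, Col1a2 and Col1a1 differed by -7.48, -5.95 and -4.09. Col3a1 was 12.19 and 12.16 in mesenchyme and 4.70 in mIMCD-3. Vcan, for the proteoglycan versican, was 11.16 and 11.11 and 3.65, with all 8 probe sets lower. Fbn2 (-6.60), Sparc (-5.64, 2 of 3 probe sets), Fstl1 (-4.67), Nid2 (-4.21) and the small proteoglycan genes Bgn (-3.30), Dcn (-3.09) and Lum (-2.81) took the same direction. The other Dcn probe set differed by -0.05. Postn, for periostin, was 9.47 and 9.20 and 8.09 and lay within the bud range. Tnc, for tenascin C, was the higher gene at 1.07, and with the mean of its probe sets it was 0.62. Eln (-0.86) and Ogn (-0.27) were neither.

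Basement membrane genes split by chain. Of 31 genes of laminins, type IV collagens and integrins, 13 (41.9%) were higher and 6 (19.4%) lower, with a median of 0.38. Col4a1 was 10.16 and 9.95 in mesenchyme, 10.57 to 11.11 in the bud and 5.14 in mIMCD-3, and its partner Col4a2 was 9.19 and 9.10 and 4.38. The chains of the mature renal basement membrane went the other way, with Col4a4 at 3.55 and 4.25 and 7.09 and Col4a3 at 1.06, while Col4a5 (0.77) and Col4a6 (0.78) did not meet the size rule. Without mesenchyme replicate 1, Col4a3 was 0.90. Nid1, the linker nidogen gene, was lower (-5.93, 2 of 3 probe sets).

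Laminin genes showed the same split. Lama1, the chain of the early bud, was 6.69 and 6.72 in mesenchyme, 8.44 to 9.98 in the bud and 5.21 in mIMCD-3, and Lama4 and Lama2 were lower by -2.32 and -1.34. Lama5 (2.24), Lamb2 (2.03), Lamb3 (3.60) and Lama3 (1.62) were higher. Lama3 was 0.89 with the mean of its probe sets and 0.16 with probe sets ending in _at preferred. Lamb1 (-0.16) and Lamc1 (0.21) differed by less than 1 log2 unit. Among integrins, which bind these chains, Itga3 was 6.68 and 6.62 in mesenchyme and 11.25 in mIMCD-3. Itgb6 (3.19), Itgb4 (3.07), Itgb8 (2.79) and Itgb5 (1.83) were higher, and the hyaluronan receptor gene Cd44 was 2.62 higher (3 of 4 probe sets). The widely used Itgb1 (-0.08) and Itgav (0.38) were not called. All 13 higher genes of the group exceeded the bud arrays.

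Hox genes record position along the body axis, and mIMCD-3 differed from mesenchyme by cluster. Of 33 measured Hox genes, 18 (54.5%) were lower and 3 (9.09%) higher, against 9.78% and 11.2% of all genes. Their median was -1.43. In the Hoxd cluster, Hoxd10 was 10.55 and 10.44 in mesenchyme and 3.92 in mIMCD-3, and Hoxd11, which patterns the kidney, was 9.0 and 8.60 and 3.91. Hoxd9 (-4.27), Hoxd12 (-3.48), Hoxd8 (-2.54), Hoxd3 (-2.18) and Hoxd13 (-1.87) were lower as well, and Hoxd1, which was 7.45 to 8.61 in the bud, was 4.09 and 3.91 in mesenchyme and 3.64 in mIMCD-3. In the Hoxc cluster, Hoxc10 was 10.12 and 10.02 and 4.22, and Hoxc8 (-4.32), Hoxc4 (-3.38), Hoxc5 (-3.08), Hoxc6 (-1.68) and Hoxc9 (-1.62) followed. Hoxc13 differed by -0.17.

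Genes of the Hoxa cluster were lower or not called, and those of the Hoxb cluster were lower, higher or not called. Hoxa9 was 11.58 and 11.66 in mesenchyme and 11.80 in mIMCD-3, although the tip arrays held only 8.72 and 8.33. Hoxa11 (-2.36), Hoxa2 (-1.43) and Hoxa5 (-1.27) were lower, and Hoxa10 was -1.66 by its brightest probe set and 0.49 by the probe set ending in _at. In the Hoxb cluster, Hoxb6 (1.60) and Hoxb9 (1.43) were higher. Hoxb13, the last gene of the cluster, was 4.01 and 3.97 in mesenchyme, 4.16 to 4.32 in the bud and 8.07 in mIMCD-3. Hoxb2 (-0.39), Hoxb4 (0.31) and Hoxb5 (0.01) were neither, and Hoxb1 was lower (-2.73). Hoxb7, whose promoter drives expression in the ureteric bud of transgenic mice, lay low in all 7 arrays by its only probe set, at 3.86 and 4.08 in mesenchyme, 3.88 to 4.24 in the bud and 3.87 in mIMCD-3.

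**Figure D4:**
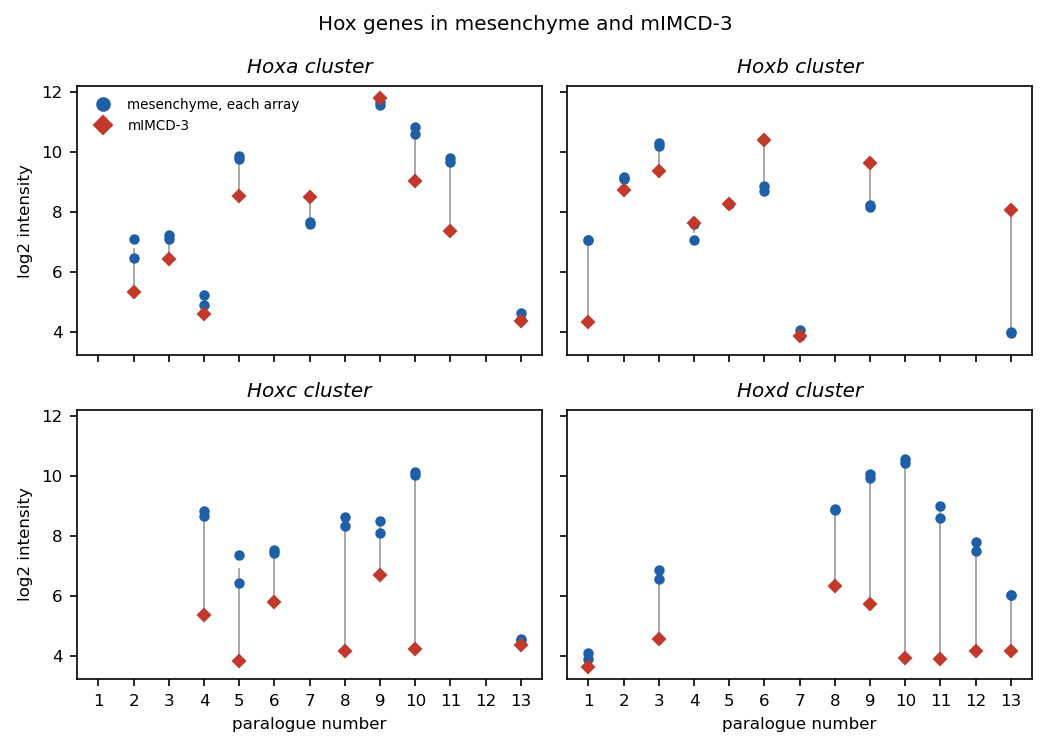
Level of the measured Hox genes (vertical axis, log2 intensity) by paralogue number (horizontal axis) in the Hoxa, Hoxb, Hoxc and Hoxd clusters, with both mesenchyme arrays as blue circles and mIMCD-3 as red diamonds. The diamonds fall to about 4 along most of the Hoxd cluster, with Hoxd10 at 3.92, and stay near or above the circles for Hoxa9 and for Hoxb6, Hoxb9 and Hoxb13.

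Imprinted genes, many of which promote or restrain fetal growth, were lower in mIMCD-3 in 14 of 23 cases (60.9%) and higher in 2 (8.70%). Shares over all genes were 9.78% and 11.2%. The median was -2.36, with medians of -0.16 in stalk and -0.31 in tip. Grb10, for an inhibitor of insulin and IGF receptors, was 12.44 and 12.49 in mesenchyme and 4.02 in mIMCD-3. Igf2, for the fetal growth factor, was 12.99 and 13.06 and 6.89. Mest was 12.97 and 13.08 and 6.61. All 3 were lower than in any bud array, and their bud levels stayed within 1 log2 unit of the mesenchyme mean. Ndn (-8.06, 8 of 8 probe sets), Peg3 (-7.66, 5 of 5) and the noncoding Meg3 (-4.99, 11 of 11) were lower in every probe set.

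Other imprinted genes took different positions. Cdkn1c, for the cell cycle inhibitor p57, was 12.01 and 12.08 in mesenchyme and 8.29 in mIMCD-3. Plagl1 differed by -1.44 in its brightest probe set, and by 0.06 in a probe set ending in _at. Dlk1 was -3.95 by the brightest probe set and -0.07 by that other choice. Gnas (-0.38), Igf2r (0.67), Snrpn (0.09) and Peg10 (0.86) did not meet the size rule. Phlda2 (1.75) and Sgce (1.43) were higher, and with the mean of its probe sets Sgce was 0.98, or 0.54 with probe sets ending in _at preferred.

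Fetal growth regulators outside the imprinted clusters were lower in 8 of 14 cases (57.1%) and higher in none. Shares over all genes were 9.78% and 11.2%, and the median of the list was -1.34. Hmga2, a chromatin factor gene of fetal tissue, was 12.94 and 12.97 in mesenchyme, 12.98 to 13.39 in the bud and 9.19 in mIMCD-3. Mycn was 9.77 and 9.64 and 5.57 (2 of 3 probe sets lower), and Trim71 was 7.07 and 6.75 and 3.94. The IGF2 messenger binding protein gene Igf2bp1 was lower (-1.45), and Igf2bp3 (-0.97), Sox11 (-0.99) and Sox4 (-0.72) did not meet the size rule. The fetal RNA-binding protein gene Lin28a was -1.42 at low levels, and Lin28b was dim in mesenchyme and mIMCD-3.

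The wider IGF system was lower in 5 of 10 genes (50%) and higher in 1 (10%), against 9.78% and 11.2% of all genes. Its median was -1.74. Igf1 was 8.50 and 8.25 in mesenchyme and 4.23 in mIMCD-3. The binding protein genes Igfbp5 (-6.67), Igfbp2 (-5.60), Igfbp3 (-4.54) and Igfbp4 (-3.07) were lower. Igfbp2 was highest in the tip at 12.39 and 12.31. Igfbp7 was the exception, with 6.25 and 6.45 in mesenchyme, at most 7.75 in the bud and 9.30 in mIMCD-3. The receptor genes Igf1r (0.21) and Insr (0.12) were not called, nor were the binding protein genes Igfbp1 (0.45) and Igfbp6 (-0.41).

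Genes induced by interferon, the antiviral signal, were higher in mIMCD-3 as a group. Of 27 measured, 21 (77.8%) were higher and 1 was lower, with a median of 1.60 against -0.05 in stalk and -0.07 in tip, and all 21 exceeded the bud. Without the dimmest 40% of genes 13 were counted, and 4 of the 21 were dim in mesenchyme. Ifit3 was 4.81 and 4.80 in mesenchyme, 4.77 to 5.02 in the bud and 11.53 in mIMCD-3. Ifit2 was 6.65 and 6.08 and 10.45, and Ifit1 was 3.47 and 3.77 and 8.30. The chemokine gene Cxcl10 was 4.34 and 4.13 and 9.08. In all 4, mIMCD-3 lay above every tissue array.

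Other arms of the response were higher by less. The guanylate binding protein gene Gbp2 (3.13) and the GTPase gene Irgm1 (3.45), the RNA sensor genes Ifih1 (2.46) and Ddx58 (1.60), and the regulators Irf7 (1.28), Irf9 (1.14) and Stat2 (1.17) were higher. Irf9 was 0.96 without mesenchyme replicate 2. Ifi35 (3.74), Usp18 (2.47) and Bst2 (2.41) belonged to the same side. Classical markers did not all take part: Mx1 (0.39), Mx2 (-0.33), Rsad2 (0.37), Oasl1 (0.57) and Irf1 (0.18) did not meet the size rule. Iigp1, for an immunity GTPase, was lower, with 8.75 and 8.69 in mesenchyme, 9.87 and 9.85 in stalk and 4.42 in mIMCD-3.

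Interferon-stimulated promoters carry the element bound by STAT and IRF factors, here searched as GAAANNGAA on both strands, letters chosen after the values were seen. They occurred in 8.56% of all promoters of the table, in 8.71% of promoters of the array's genes and in 14 of 22 interferon response promoters (63.6%). Among class I presentation genes they occurred in 3 of 11. A longer form, the same letters followed by 1 more A, had been searched first. It occurred in 3.44% of all promoters of the table, in 3.63% for the array's genes, in 13 of 22 interferon response promoters (59.1%) and in 3 of 11 class I promoters. The genes of the list were chosen because interferon is known to induce them, so the share describes the list. The 3 promoters shown belong to genes with wide differences, with the shorter form in capitals, from RefSeq build GRCm38.p6. They are Ifit1 (chr19:34640639-34640938, plus strand), Ifit3 (chr19:34583279-34583578, plus strand) and Cxcl10 (chr5:92348840-92349139, minus strand).
Ifit1: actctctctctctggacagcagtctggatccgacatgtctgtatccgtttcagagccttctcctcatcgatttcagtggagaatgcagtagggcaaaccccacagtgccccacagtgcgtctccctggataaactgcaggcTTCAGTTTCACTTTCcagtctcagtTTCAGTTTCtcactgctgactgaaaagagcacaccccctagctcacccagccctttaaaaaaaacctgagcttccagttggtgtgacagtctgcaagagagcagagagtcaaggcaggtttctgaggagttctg
Ifit3: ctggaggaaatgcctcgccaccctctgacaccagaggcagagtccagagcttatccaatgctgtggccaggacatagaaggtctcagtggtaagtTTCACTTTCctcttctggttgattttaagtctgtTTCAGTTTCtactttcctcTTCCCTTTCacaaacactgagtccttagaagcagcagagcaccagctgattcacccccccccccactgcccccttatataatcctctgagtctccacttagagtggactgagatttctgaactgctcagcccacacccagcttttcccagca
Cxcl10: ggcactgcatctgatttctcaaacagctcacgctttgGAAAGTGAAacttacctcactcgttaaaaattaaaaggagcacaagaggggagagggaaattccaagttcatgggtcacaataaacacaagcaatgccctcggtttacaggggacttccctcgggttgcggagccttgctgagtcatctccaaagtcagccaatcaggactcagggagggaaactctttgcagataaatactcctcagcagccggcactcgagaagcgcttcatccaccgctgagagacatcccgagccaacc

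Ifit1 and Ifit3 hold 3 matches each, on the strand opposite to the gene, and a pair of those in Ifit1 overlap. Cxcl10 holds 1 on the strand of the gene. The differences of these genes were 4.68, 6.73 and 4.85.

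Genes that present peptides on class I molecules were higher in 8 of 13 cases (61.5%) and lower in none, with a median of 1.37, and all 8 exceeded the bud. H2-K1, a class I heavy chain gene, was 7.94 and 7.83 in mesenchyme and 11.14 in mIMCD-3. H2-D1 was 7.93 and 7.87 and 11.11, with 7 of 9 probe sets on that side. Probe sets of class I genes may read each other's transcripts, so single members are uncertain. B2m, the light chain gene, was 10.12 and 9.98 and 11.42, and the peptide loading genes Tapbp (3.16) and Tap2 (1.14) and the immunoproteasome gene Psmb8 (2.13) were higher. Psmb9 (0.40), Psmb10 (0.74) and Tap1 (0.89) were not called.

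Chemokine and NF-kB genes were higher in 8 of 23 cases (34.8%) and lower in 3, with a median of 0.32. Without the dimmest 40% of genes, 4 were higher. Cxcl5, a neutrophil chemokine gene, was 3.65 and 3.52 in mesenchyme and 8.02 in mIMCD-3, and Lif, for the cytokine that induces nephron epithelium in culture, was 4.68 and 5.21 and 7.27. Relb (2.25), Csf1 (2.05) and Cxcl16 (1.61) were higher. Birc3 was 1.74 higher by its brightest probe set and -0.05 by the probe set ending in _at. Ccl5 was 1.04, and 0.77 without mesenchyme replicate 1. Il6 (0.01), Ccl2 (-0.02) and Tnfaip3 (0.14) did not differ by 1 log2 unit, and Il33 (-4.36), Vcam1 (-2.11) and Icam1 (-1.66) were lower.

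Genes that respond to YAP and TGF-beta signals were higher in 11 of 19 cases (57.9%) and lower in 3 (15.8%). Shares over all genes were 11.2% and 9.78%, and the median of the list was 1.32. Ankrd1, a YAP target gene, was 4.23 and 4.22 in mesenchyme, 4.46 to 4.99 in the bud and 11.05 in mIMCD-3. Ccn2, another target gene, was 6.73 and 6.37 and 10.15, but Ccn1 was 10.91 and 10.89 and 11.43, under the bud arrays. All 4 probe sets of Ccn1 were on the higher side, 2 of them by at least 1 log2 unit and by 1.64 at most. The caveola genes Cav2 (4.50, with 1 of 2 probe sets), Cavin1 (2.94) and Cav1 (1.61) were higher. On the TGF-beta side, the receptor gene Tgfbr2 was higher (2.28, 2 of 3 probe sets) and the ligand gene Tgfb1 was 1.17 by 1 of 2 probe sets, whereas Tgfb2 (-2.97), the inhibitor gene Smad7 (-1.17) and the target gene Tgfbi were lower. Smad7 was short of the size rule with arrays centred on their medians (-0.998), with the mean of its probe sets (-0.81) and with probe sets ending in _at preferred (-0.45), and Tgfb1 was 0.33 with the mean of both probe sets. Tgfbi was 11.38 and 11.51 in mesenchyme and 3.39 in mIMCD-3.

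Immediate early genes, which respond within minutes to growth factors and to tissue handling, split within families. Of 20, 4 (20%) were higher and 6 (30%) lower, against 11.2% and 9.78% of all genes, with a median of 0.05. Fos was 12.44 and 12.52 in mesenchyme and 8.33 in mIMCD-3, Fosb was 7.63 and 7.42 and 3.30, and Jun was 11.31 and 11.29 and 8.66. These were lower than in every bud array too. The related genes Fosl2 (2.75), Fosl1 (2.17) and Junb (1.80) were higher, as was Ier3 (3.11). Egr1 was 11.50 and 11.44 and 11.59, Egr2 was lower (-2.08), and Dusp1 (-1.54) and Ier2 (-1.61) were lower. The tissue was microdissected and the cells were not, a step whose part in these values was not tested.

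Annexins and S100 proteins bind calcium and membranes, and 10 of 14 genes (71.4%) were higher and 1 (7.14%) lower. Shares over all genes were 11.2% and 9.78%, and the median of the list was 1.59. Anxa1 was 5.97 and 5.75 in mesenchyme, 6.89 to 7.73 in the bud and 13.55 in mIMCD-3. Anxa3 was 8.78 and 8.57 and 12.60, and Anxa4 was 6.71 and 6.03 and 10.70. All 10 higher genes exceeded the bud. S100a1 (2.90), S100a14 (2.69) and S100a13 (1.56) were higher, while the partners Anxa2 (0.93) and S100a10 (0.90) fell short of the size rule. Anxa6 was lower (-1.93).

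Genes of glutathione and oxidative defence numbered 23, of which 8 (34.8%) were higher and 4 (17.4%) were lower (median 0.24). Shares over all genes were 11.2% and 9.78%. Gclm, for the glutathione synthesis subunit, was 7.25 and 7.15 in mesenchyme and 10.62 in mIMCD-3, and Gsr was 8.21 and 8.06 and 10.45. Cbr3, for a carbonyl reductase, was 4.51 and 4.90 and 9.31. The transferase genes Gsto1 (2.02) and Gstp1 (1.62) were higher, but Gsta4 (-3.37) and Mgst1 (-6.83) were lower, Mgst1 by only -0.11 with the probe set ending in _at. The peroxidase genes Gpx3 (-3.18) and Gpx1 (-1.43) were lower. Nfe2l2, for the master regulator NRF2, was 1.24 by 1 of 2 probe sets and 0.45 with the mean of both. Genes known as its targets divided: Gclm, Gsr and Cbr3 were higher as given, and Hmox1 (0.03), Nqo1 (0.27), Srxn1 (-0.12) and Txnrd1 (-0.06) did not differ by 1 log2 unit. Gclc was 0.98 by its brightest probe set, just short of the size rule, and 2.40 by its other probe set.

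Of 16 sterol synthesis genes, 6 (37.5%) were higher and 1 (6.25%) was lower, against 11.2% and 9.78% of all genes, and the median was 0.19. With the mean of all probe sets 2 were higher. Sc5d (1.85, 2 of 3 probe sets), Stard4 (1.41), Pmvk (1.37) and Fdps (1.22) were among the 6, and the regulator genes Srebf1 (1.06) and Srebf2 (-1.41) took opposite directions. Short of the size rule were Sc5d (0.50), Stard4 (0.94) and Fdps (0.62) with the mean of their probe sets, and Srebf1 (0.87) with quantiles equalised again. Of 21 genes of glycolysis and hypoxia, 4 were higher and 3 lower, also against 11.2% and 9.78% of all genes, and the median was 0.41. Egln3, for an oxygen sensor, was 6.25 and 6.01 and 8.83, and Pfkp (2.33) and Bnip3 (1.39) were higher, as was Aldoc (2.70, or 0.56 by a probe set ending in _at). Slc2a3 (-2.74, or -0.49 by a probe set ending in _at) and Ddit4 (-1.62) were lower. Vegfa (-0.97), Ldha (0.16) and Pgk1 (0.23) were not called.

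Cell cycle genes stood at similar levels in confluent mIMCD-3 and in the growing mesenchyme. Of 32, 3 (9.38%) were higher and 2 (6.25%) lower, shares no larger than those over all genes, with a median of 0.44. With arrays centred on their medians 8 were higher, and without mesenchyme replicate 1 there were 5. Mki67 was 10.86 and 10.77 in mesenchyme and 11.26 in mIMCD-3, Pcna was 12.73 and 12.82 and 12.81, and Mcm2 was 10.58 and 10.52 and 10.80. Ccna2 (1.49) and Cdc45 (1.59, or 0.94 with the mean of its probe sets) were higher. The D-type cyclin genes were the exception: Ccnd2 was 11.53 and 11.59 and 4.86, with all 7 probe sets lower, and Ccnd3 was -1.56 by its brightest probe set (2 of 3 shared the sign, with a mean of -0.69). Cdkn2c, for the inhibitor p18, was 6.18 and 6.53 and 11.11 and is the widest difference upwards.

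Cell cycle inhibitors and p53 targets were listed together, and their members differed. Of 18 genes, 5 (27.8%) were higher and 1 (5.56%) lower, against 11.2% and 9.78% of all genes, with a median of 0.78. With arrays centred on their medians 9 were higher, and without mesenchyme replicate 1 there were 8. Cdkn2a, for p16 and p19ARF, was 4.06 and 4.16 in mesenchyme, 3.88 to 3.96 in the bud and 9.50 in mIMCD-3. The neighbouring Cdkn2b was 4.08 and 4.30, 3.78 to 4.60 and 9.31 in the same order. Cdkn1a, for p21, was 6.70 and 6.82 in mesenchyme and 10.27 in mIMCD-3, and Pmaip1, a p53 target gene, was 3.91 and 3.80 and 8.55. The inhibitor gene Cdkn1b (0.90) and the p53 target genes Mdm2 (0.32), Ccng1 (0.97), Bbc3 (-0.19) and Sesn2 (-0.11) were not called. Cdkn1c, an inhibitor gene given with the imprinted genes, was lower. Zmat3 was called at 1.01 and was 0.87 without mesenchyme replicate 2 or 0.78 with quantiles equalised again, and Trp53inp1 was lower (-1.73).

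Endothelial, blood and myeloid genes stood mostly lower in mIMCD-3 than in the mesenchyme samples. Over all genes, 9.78% were called lower. Of 15 endothelial genes, 13 were lower in mIMCD-3, with a median of -3.30, and their summed linear intensity was 5291 and 4873 in mesenchyme against 669 in mIMCD-3. Pecam1, which marks vessels, was 8.15 and 8.08 and 4.54, and Emcn was 9.61 and 9.44 and 4.47. Of 8 erythroid genes 4 were lower, with sums of 24342 and 24017 against 393, mainly from the embryonic globin genes Hbb-y (13.88 and 13.87 and 3.03), Hba-x and Hbb-bh1 (-5.73). Of 13 myeloid genes 8 were lower (5 without the dimmest 40% of genes), with sums of 1434 and 1285 against 467, and the complement gene C1qa was 7.31 and 7.0 and 4.12. Some members stayed well above the dim range in mIMCD-3, with Egfl7 at 7.99, Epor at 7.43 and Csf1r at 6.62.

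Nerve and muscle markers took the same direction, again beside 9.78% lower over all genes. Of 9 neuronal and neural crest genes, 5 stood lower (2 without the dimmest 40% of genes), with sums of 819 and 765 against 225, and Stmn2 was 7.76 and 7.47 and 4.68. Of 9 smooth muscle genes 6 were lower, with sums of 6877 and 6986 against 476, which Tpm2 dominated at 12.39 and 12.45 and 6.65. Tpm2 is also expressed outside muscle, and the contractile marker gene Myh11 was at 4.27 and 4.60 and 4.12. No gene of these 5 lists was higher in mIMCD-3, against 11.2% of all genes. Vessel, blood, nerve and muscle transcripts thus moved together with the genes of mesenchyme, stroma and matrix that were lower in mIMCD-3, and their part in those results was not tested.

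Sex-linked genes differed between the samples. Xist, transcribed from the inactive X chromosome of females, was 11.04 and 11.07 in mesenchyme, 10.36 to 11.01 in the bud and 5.63 in mIMCD-3. The Y-linked genes Kdm5d (1.51, 2 of 3 probe sets), Eif2s3y (1.16) and Uty (1.08) were higher, and 1 of the 3 was with quantiles equalised again or with the mean of all probe sets. The mesenchyme arrays held Xist and Y-linked transcripts together, and the labels do not state the sex or the number of the embryos in a sample.

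**Figure D5:**
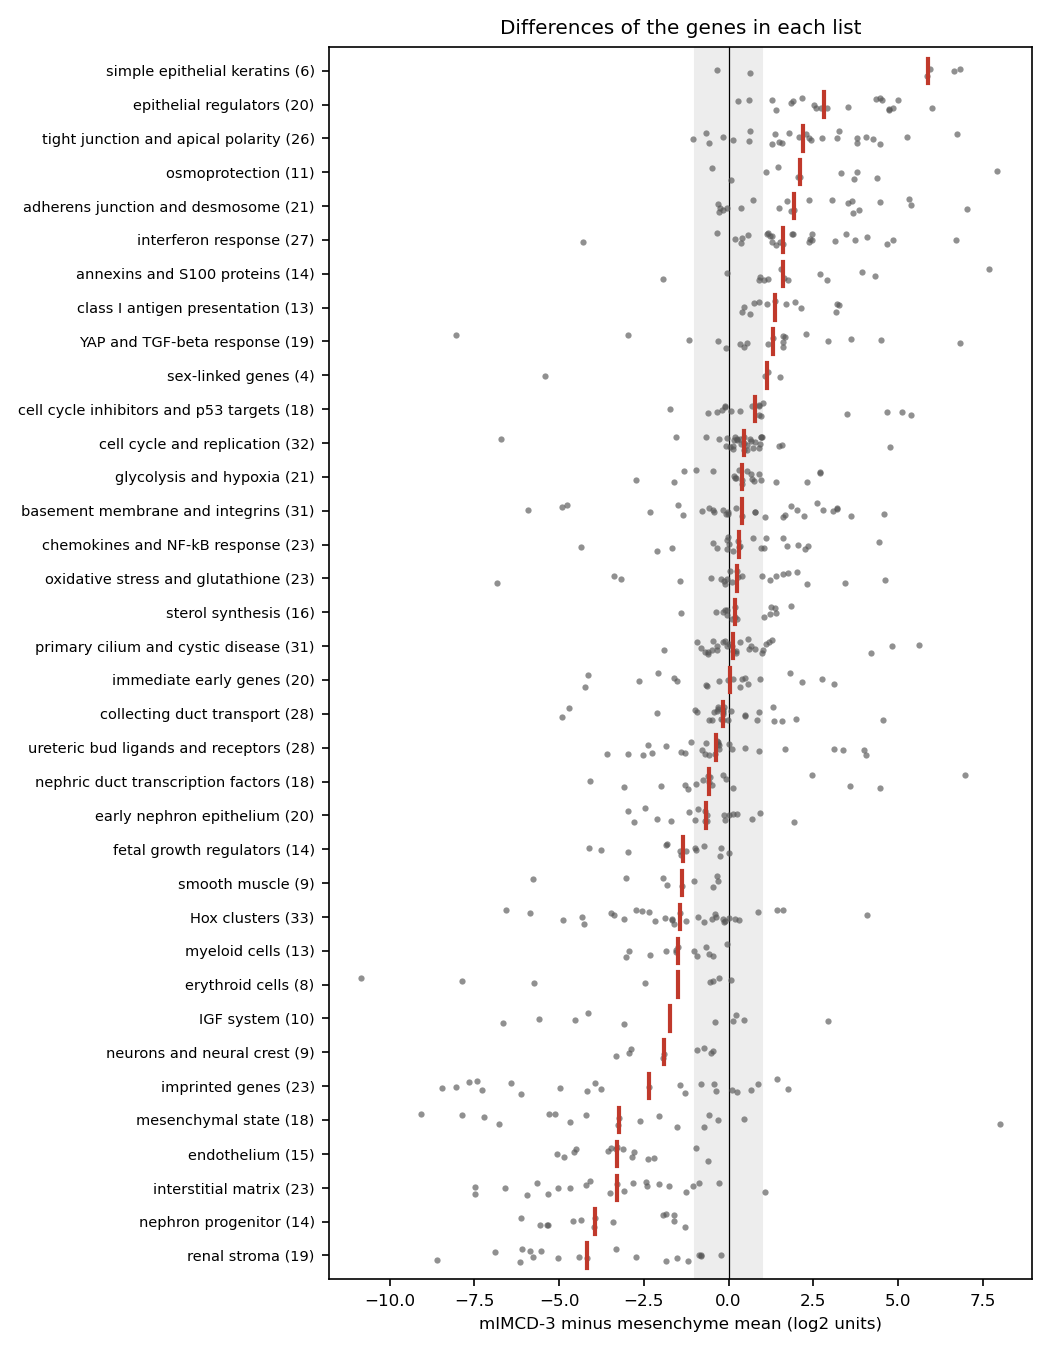
Difference of mIMCD-3 from the mesenchyme mean in log2 units (horizontal axis) for each measured gene (dots) of the 36 lists (rows), with the list median as a red bar and the range of 1 log2 unit either way as a grey band. Keratins (median 5.90) lie furthest to the right, renal stroma (-4.18) and nephron progenitor genes (-3.95) furthest to the left, and the medians of collecting duct transport, cilium and cell cycle genes lie on the grey band, with single genes to both sides of it.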

How the data were processed

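RNA of 7 mouse samples was hybridised to Affymetrix arrays, and 3 of the arrays enter this comparison. The deposited values are linear intensity from robust multichip analysis (RMA), which the authors recalculated over the complete set of 7 arrays, per the series' design text. RMA corrects background, equalises probe distributions between arrays and summarises each probe set, so a shift shared by all genes is removed. The software and its version are not given in the sources used here. Values were converted here to log2 with no filter.

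Of 45101 probe sets, 64 were controls, 34945 listed 1 gene in the platform annotation, 932 several and 9160 none. Symbols were updated through Entrez identifiers with the RefSeq table of GRCm38.p6, which held 99.4% of them. Each of 18193 genes was represented by its brightest probe set by the mean of the 7 arrays, and 9010 genes had several.

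Differences were computed with Python 3.11.15, pandas 2.3.3 and numpy 2.4.6, and figures were drawn with matplotlib 3.10.9. The size rule was run on simulated data with planted shifts of 2 log2 units and the error of the mesenchyme replicates alone. That run cannot show how the rule performs for mIMCD-3, whose own spread is not measured. The comparison and the 36 lists, which hold 738 entries, were chosen with earlier results of these data known. Of the entries, 678 were measured (676 genes), 1 of them through an older symbol. Named genes are the 20 highest and 20 lowest past the size rule, any list member, and Wnt7b, Wnt11, Ret, Six2, Vim, Grhl2 and Cdh1. Genes without a name were passed over. Genes outside this rule are said to be chosen later. Promoters come from RefSeq tables of GRCm38.p6, and the interferon letters were shortened after a longer form had been counted. Alternatives were median centring, quantile normalization, other summaries of probe sets, a filter on dim genes, a threshold of 2 log2 units and leaving out either mesenchyme array.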

Additional observations from a re-analysis of the deposited data

How the results depend on the processing

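The counts of genes higher and lower by size stayed within 1.5 times of 2045 and 1780 with arrays centred on their medians, quantiles equalised again, means of all probe sets, probe sets ending in _at preferred, or without the dimmest 40% of genes. At 2 log2 units the counts were 608 higher and 792 lower. Leaving out either mesenchyme array gave 1895 to 2222 higher and 1827 to 1870 lower. Centring moved the median of all genes upwards by 0.168. Of 411 called genes of the lists and of the widest differences, those no longer past the size rule numbered 6 with centring, 12 with quantiles equalised, 41 with the mean of all probe sets, 17 with probe sets ending in _at preferred and 7 without either mesenchyme array. In 4 the sign turned, all with probe sets ending in _at preferred: Birc3 was -0.0477, Cryab -0.11, Hoxa10 0.49 and Plagl1 0.0565. The cause was not tested. Of the higher genes with several probe sets, 944 of 1264 (74.7%) had all of them on the same side, and of the lower genes 868 of 1047 (82.9%). Signal limits the lower genes most, since 361 of them were dim in mIMCD-3, while 85 higher genes were dim in mesenchyme. No paired analysis was possible because mIMCD-3 has 1 array, which shares fewer than 2 replicate numbers with mesenchyme, and no test was made.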

Other observations

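The genes described here belong to none of the gene lists above and were chosen after their values were seen. Some genes of growth factor signals were picked for low levels in mIMCD-3, which says nothing of such genes as a class, and others, such as Il6st and the list gene Met, were higher. Fgfr1, the receptor gene of the mesenchyme, was 9.58 and 9.38 in the mesenchyme arrays and 4.52 in mIMCD-3. Mdk, for the growth factor midkine, was 13.26 and 13.28 and 6.37, and the heparan sulfate proteoglycan gene Gpc3 was 11.62 and 11.72 and 5.57. The sulfatase genes Sulf1 and Sulf2, which edit heparan sulfate, differed by -4.62 and -6.36. The CXCL12 receptor genes Cxcr4 and Ackr3 differed by -4.36 and -6.62, beside the ligand gene Cxcl12 at -7.71. The adhesion gene Ncam1 was 9.84 and 9.60 and 5.30, and the receptor genes Agtr2, Ednrb and Kit differed by -4.80, -4.95 and -4.67. In the retinoic acid pathway, the receptor gene Rarb (-5.18), the binding protein gene Crabp2 (-4.98) and the nuclear receptor gene Nr2f1 (-7.19) were lower, while Rara differed by 0.68.

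In the other direction, 4 of 6 measured Iroquois homeobox genes were higher in mIMCD-3, against 11.2% of all genes. The family was picked for these values, so the count is no result about the family. Irx3 was 5.75 and 5.40 in mesenchyme, 7.03 to 7.88 in the bud arrays and 10.30 in mIMCD-3, and its neighbour Irx5 differed by 4.50, with Irx2 at 3.50 and Irx1 at 1.92. Irx4 (-0.74) and Irx6 (-0.32) did not meet the size rule. Sim2, a relative of the nephric duct factor Sim1, was 3.84 and 3.65 and 9.12. The metallothionein genes Mt1 (5.25) and Mt2 (2.51), which bind zinc and copper, were higher, as were Wfdc2 (5.55) and the membrane protease gene Tmprss2 (5.22). Lmna, for nuclear lamin A, was 6.14 and 5.69 and 10.27. The tissue factor gene F3 (5.90), the EGF family ligand gene Hbegf (4.40) and the LIF receptor subunit gene Il6st (3.25) were higher too. The potassium channel gene Kcnk1 (4.90), the apical syntaxin gene Stx3 (4.59) and Wwc1 (4.82), for the Hippo pathway protein KIBRA, completed this group.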
